A study of Caenorhabditis elegans with 8 samples.

Results

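The 6 Hox genes of *Caenorhabditis elegans*, *ceh-13*, *lin-39*, *mab-5*, *egl-5*, *php-3* and *nob-1*, were taken by name from the Ensembl annotation of the WBcel235 genome (ce11), out of 46890 genes on the 6 nuclear chromosomes. Hox genes encode homeodomain transcription factors that assign cells their fates along the anterior-posterior axis, and most cells of a worm use few or none of them. In this species the cluster is dispersed into neighbouring pairs on 1 chromosome, and Polycomb-like proteins, Wnt signals and TALE-class homeodomain partners regulate or assist its members. Nucleotide excision repair cuts a short oligomer that carries the cyclobutane pyrimidine dimer (CPD) out of the DNA, either by global repair, which needs XPC-1 and surveys the whole genome, or by transcription-coupled repair (TCR), which needs CSB-1 and is triggered where RNA polymerase II stalls on the transcribed strand (TS).

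XR-seq sequences these excised oligomers after immunoprecipitation with an anti-CPD antibody. The 8 libraries form 4 groups of 2 replicates: *xpc-1* worms (strain TG2226) of mixed stages 1 h after UVB, *csb-1* L1 larvae (strain RB1801) 1 h after UVB, WT L1 larvae (N2) 1 h after UVB, and WT L1 larvae without UV. Each genotype is represented by 1 strain, all were grown on OP50 bacteria, and whole worms were used, so that a read can come from any tissue. The *xpc-1* worms differ from WT in both genotype and stage, and the effects of these cannot be told apart. Nothing in the labels says that replicates came from separate cultures, so that the p-values below measure only the spread between these libraries.

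Kept reads (mapping quality over 20, nuclear chromosomes, each distinct read once) numbered 4762651 and 143716 in mixed-stage *xpc-1*, 6628507 and 13203914 in *csb-1* larvae, 8198054 and 3252700 in irradiated WT, and 10260 and 12916 in WT larvae without UV. A read was assigned by its midpoint to the gene or to the 2 kb upstream of its start, and by its strand to the TS, which lies opposite to the annotated strand, or to the nontranscribed strand (NTS). The second *xpc-1* library held between 0 and 18 reads per Hox gene, so that the values of *xpc-1* rest on the first. The number after each read's name, which its values led to be taken as copies of that read, averaged 18.9 in WT replicate 2 and 1.86 in WT replicate 1; its meaning is not stated, and the alternatives that weight reads by copies rest on it. A stretch of 800 bp in *csb-1* held 0 reads in both *csb-1* libraries, against 45 and 21 in WT, and a stretch of 400 bp in *xpc-1* held 0 in both *xpc-1* libraries, against 19 and 4 in WT; both stretches were chosen for having no reads in the mutant. Summed TS levels of 3 neuronal markers (*rab-3*, *unc-64*, *snb-1*) were 94.0 and 156 reads per kb per 1000000 kept reads (RPKM) in mixed-stage *xpc-1*, 22.8 and 20.2 in *csb-1*, against 43.0 and 47.6 in WT. Those of 3 muscle markers (*unc-54*, *myo-3*, *unc-15*) were 24.02 and 32.5 RPKM in mixed-stage *xpc-1*, 9.99 and 11.8 in *csb-1*, against 16.2 and 17.6 in WT. Those of 3 intestine markers (*elt-2*, *ges-1*, *cpr-1*) were 15.7 and 26.7 RPKM in mixed-stage *xpc-1*, 17.4 and 16.3 in *csb-1*, against 16.7 and 15.9 in WT. The value of 26.7 RPKM rests on 7 TS reads. Summed levels of 5 adult markers (*vit-2*, *vit-5*, *vit-6*, *msp-19*, *msp-142*) were 3.11 and 2.71 RPKM in mixed-stage *xpc-1*. They were 7.58 and 6.57 RPKM in *csb-1*, against 5.01 and 3.60 RPKM in WT, with *msp-19* at 0 TS reads in all of them. In the strand comparison below, the 2 adult markers with enough reads were both higher in *xpc-1* than in WT (median difference 1.81). Of all genes tested there 55.7% were higher, with a median of 1.52. The adult sum was thus lower in the first *xpc-1* library by TS level, while the 2 tested markers were higher by strand. The sum of the second *xpc-1* library rests on 2 TS reads, both in *vit-2*, with 4 of the 5 markers at 0. *vit-2* by itself lay above both WT libraries there and below both in the first, so that the second library cannot decide the direction. Stage was not tested. In whole worms, fewer cells using a gene and less repair per cell cannot be told apart.

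All 6 genes lie on chromosome III. *lin-39* (WBGene00003024, minus strand, 7528641 to 7536632, 7992 bp) and *ceh-13* (WBGene00000437, plus strand, 7555660 to 7558041, 2382 bp) are 19027 bp apart and are transcribed away from each other. *mab-5* (WBGene00003102, minus strand, 7776835 to 7783454, 6620 bp) and *egl-5* (WBGene00001174, plus strand, 7814374 to 7817141, 2768 bp) also diverge, 30919 bp apart, with 1 protein-coding gene, *cyk-7*, in between. *nob-1* (WBGene00003779, minus strand, 12077793 to 12084316, 6524 bp) and *php-3* (WBGene00004024, minus strand, 12074218 to 12077556, 3339 bp) follow each other with only 236 bp between them, so that 1764 bp of the 2 kb upstream of *php-3* lie inside *nob-1*. Short noncoding RNA genes overlap *lin-39* (C07H6.14 and C07H6.18, opposite strand), its upstream window (C07H6.12 and C07H6.16) and *egl-5* (C08C3.10, opposite strand). TT dinucleotides, the usual site of a CPD, were shared almost evenly between the strands of every member: 48.0% lay on the TS in *ceh-13*, 47.0% in *lin-39*, 46.8% in *mab-5*, 46.6% in *egl-5*, 51.1% in *php-3* and 45.7% in *nob-1*.

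The excised oligomers themselves show what was counted. Below is the 24-nt reference window of the TS site with the most *xpc-1* reads in each gene, 5′ to 3′ on the TS, with the TT that lies 6 nt from the 3′ end of the oligomer in capitals.
ceh-13 intron, chrIII:7556746-7556769, minus strand: gtgggaactgaaccccTTatgtac
lin-39 intron, chrIII:7531333-7531356, plus strand: cagcctcacactcacaTTgactac
mab-5 intron, chrIII:7782201-7782224, plus strand: ggcgaatctgaaaataTTttaagt
egl-5 intron, chrIII:7815386-7815409, minus strand: tagatctctgcttgaaTTtcagtt
php-3 intron, chrIII:12076936-12076959, plus strand: tgccgcccacccctgaTTatcaag
nob-1 exon, chrIII:12077982-12078005, plus strand: ccctgtgcaaacgagaTTtgggac
The *nob-1* site gave 7 and 1 reads in mixed-stage *xpc-1*, 4 and 5 in *csb-1*, against 6 and 5 in WT. The *php-3* site gave 4 and 0 reads in mixed-stage *xpc-1*, 6 and 8 in *csb-1*, against 4 and 0 in WT. At the *egl-5* site only 2 reads were found, both in the first *xpc-1* library. Repair was thus spread over many sites: of 699 TTs on the TS of *nob-1*, 217 had at least 1 read in some irradiated library, and of 340 in *egl-5*, 79 did. Reads with a TT at this place made up 46.8% of the reads of the 6 genes in each *xpc-1* library, 50.4% and 49.5% in *csb-1*, against 52.3% and 50.2% in WT.

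The NTS sites with the most reads summed over the irradiated L1 libraries in the 2 longest genes follow, 5′ to 3′ on the NTS. The TS sites above were chosen by *xpc-1* reads instead, so that the *xpc-1* counts of TS and NTS sites cannot be set against each other.
lin-39 intron, chrIII:7534882-7534905, minus strand: aggatggcgcccggtaTTctgtct
mab-5 intron, chrIII:7782993-7783016, minus strand: atttcgcaacgtcccaTTactaaa
The *lin-39* NTS site gave 1 and 0 reads in mixed-stage *xpc-1*, 5 and 4 in *csb-1*, against 5 and 3 in WT. The *mab-5* NTS site gave 0 and 0 in mixed-stage *xpc-1*, 1 and 6 in *csb-1*, against 1 and 1 in WT.

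Summed over the 6 genes, 80.7% of 1027 reads (exact 95% interval 78.2% to 83.1%) and 85.1% of 47 reads were on the TS in mixed-stage *xpc-1*. The TS took 48.7% of 1791 and 46.2% of 3670 reads in *csb-1*, and 53.9% of 2267 and 57.6% of 858 reads in WT, where TTs alone would give 47.2%. Intervals cover counting error only. The strand preference was therefore strong in *xpc-1*, small in WT, and within 2 percentage points of the TT share in *csb-1*. Over protein-coding genes with enough reads the median TS share was 80.0% in the first *xpc-1* library, 49.8% in both *csb-1* libraries, and 53.8% and 54.9% in WT. The Hox sums were close to these, although a sum of reads and a median of genes are different measures. In the second *xpc-1* library the median was 91.7% over 3544 genes, above the Hox sum of 85.1%, which rests on 47 reads.

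**Figure D1:**
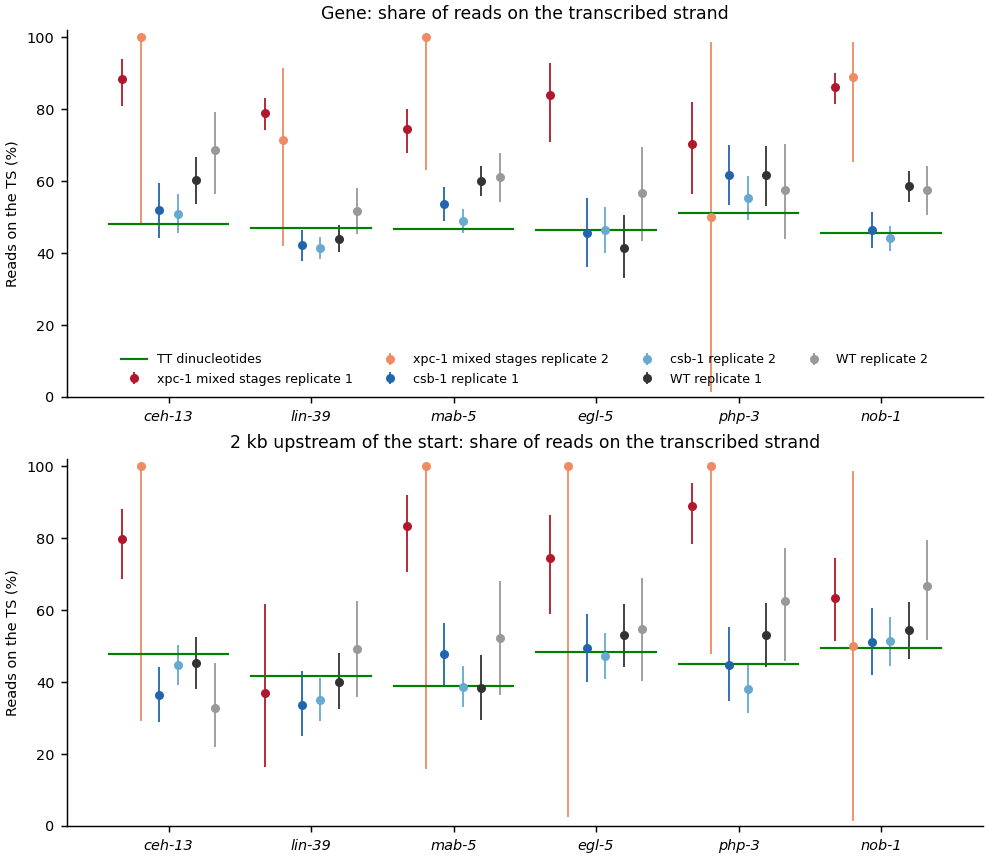
Share of reads on the TS (y axis, percent) of each Hox gene (upper panel) and of its 2 kb upstream (lower panel) in the 6 irradiated libraries; bars are exact 95% intervals of counting error, green lines the TT share, and libraries without reads have no point. In the genes the first *xpc-1* library lies between 70.4% and 88.6%, while the *csb-1* libraries lie between 41.4% and 61.9%.

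The first question was which Hox genes lose TS repair without CSB-1. Strand ratios, log2 of TS over NTS reads with 0.5 added to each, were compared by limma over 23836 genes; all 6 members passed the filter of a mean of 20 reads. 2 of the 6, *nob-1* and *mab-5*, had a lower ratio in *csb-1* than in WT (adjusted p under 0.05), where 13.3% of all genes tested were lower and 0.344% were higher; no member was higher. All 6 differences were negative, as were those of most genes tested, with a median of -0.45 over the members against -0.21 over all genes tested.

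**Figure D2:**
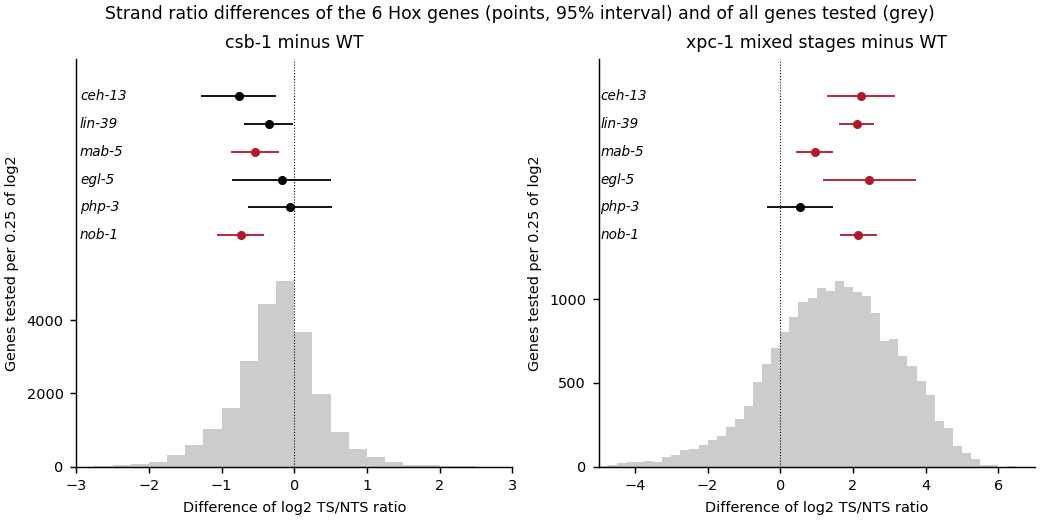
Differences of the log2 TS/NTS ratio (x axis) of the 6 Hox genes, with 95% intervals, above the distribution over all genes tested (grey, y axis number of genes): left *csb-1* minus WT, right mixed-stage *xpc-1* minus WT; red marks an adjusted p under 0.05. The *csb-1* differences run from -0.77 to -0.06 and the *xpc-1* differences from 0.54 to 2.45.

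*ceh-13*, the *labial*-like gene that patterns the anterior body, had 91 TS and 84 NTS reads and 175 TS and 168 NTS reads in *csb-1*, against 138 TS and 91 NTS reads and 48 TS and 22 NTS reads in WT. Its TS share was 52.0% and 51.0% in *csb-1*, below both WT libraries at 60.3% and 68.6%. The ratio difference of -0.77 (SE 0.24) narrowly missed the threshold (adjusted p 0.0503), and it passed in 8 alternatives, among them a pseudocount of 2 (adjusted p 0.0374) and the replicate block (adjusted p 0.0233). Relative to TTs its WT ratio was 0.97 on the log2 scale (adjusted p 0.000544), 1 of 3 members above their TT ratio in WT, where 29.8% of all genes tested were above and 7.98% below.

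*lin-39*, which acts in the mid-body, where it keeps vulval precursor cells from fusing, is the member with the most reads. It had 221 TS and 303 NTS reads and 441 TS and 625 NTS reads in *csb-1*, against 303 TS and 385 NTS reads and 127 TS and 119 NTS reads in WT. The TS share was 42.2% and 41.4% in *csb-1*, against 44.0% and 51.6% in WT, so that the groups did not overlap but the lower WT library lay close to *csb-1*. The difference was -0.35 (SE 0.16, adjusted p 0.183) and became significant without WT replicate 1 (-0.57, adjusted p 0.000558). Relative to TTs its WT ratio was 0.05 (95% interval -0.19 to 0.29, adjusted p 0.757).

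*mab-5*, which directs posterior fates and the migration of Q neuroblast descendants, had 239 TS and 206 NTS reads and 450 TS and 469 NTS reads in *csb-1*, against 343 TS and 227 NTS reads and 129 TS and 82 NTS reads in WT. The share of 53.7% and 49.0% in *csb-1* lay below 60.2% and 61.1% in WT. Its ratio fell by 0.55 (SE 0.15, adjusted p 0.0285). The call was lost without either *csb-1* library (adjusted p 0.103 without replicate 1 and 0.455 without replicate 2), with libraries thinned to one depth (0.0588) and with reads weighted by their copies (0.0959). In WT its ratio stood 0.81 above the TT ratio (adjusted p 5.36e-05).

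*egl-5*, an *Abdominal-B*-like gene of the tail, had few reads: 52 TS and 62 NTS and 116 TS and 134 NTS in *csb-1*, against 54 TS and 76 NTS and 34 TS and 26 NTS in WT. Its TS share of 45.6% and 46.4% in *csb-1* lay between the WT libraries at 41.5% and 56.7%. The difference of -0.18 has a 95% interval of -0.85 to 0.50 (adjusted p 0.808), which is wide enough to hold the *nob-1* value, and it turned to 0.26 without WT replicate 2.

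*php-3* and *nob-1*, the adjacent posterior *Abdominal-B*-like paralogs that act in tail patterning, gave different values, and the difference between them was not tested. *php-3* had 86 TS and 53 NTS reads and 149 TS and 120 NTS reads in *csb-1*, against 87 TS and 54 NTS reads and 34 TS and 25 NTS reads in WT. Its TS share was 61.9% and 55.4% in *csb-1*, against 61.7% and 57.6% in WT, with overlapping groups and a difference of -0.06 (95% interval -0.64 to 0.52, adjusted p 0.937). Relative to TTs its WT ratio was 0.50 on the log2 scale, just short of the threshold (adjusted p 0.0538), and its *csb-1* ratio 0.44 (adjusted p 0.175).

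*nob-1* had 183 TS and 211 NTS reads and 363 TS and 460 NTS reads in *csb-1*, against 298 TS and 211 NTS reads and 122 TS and 90 NTS reads in WT. Its TS share of 46.4% and 44.1% in *csb-1* lay below 58.5% and 57.5% in WT, beyond the spread of either pair. The ratio fell by 0.74 (SE 0.15, adjusted p 0.00505), the smallest adjusted p of the 6. Thinning to one depth took it to 0.0748, and leaving out *csb-1* replicate 1 or 2 to 0.0549 and 0.0991. In WT its ratio was 0.72 above the TT ratio (adjusted p 0.000149), and in *csb-1* -0.02 (adjusted p 0.920). No member passed the test against TTs in *csb-1*, where 3.49% of genes were above and 3.17% below.

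The levels of each strand show where these differences lay. The *nob-1* TS level, in reads per 1000000 kept reads, fell by 0.42 on the log2 scale in *csb-1* (SE 0.13, adjusted p 0.0267), the only member with a call, where 13.3% of genes tested were lower and 2.27% higher; without *csb-1* replicate 1 or 2 its adjusted p was 0.168 and 0.197. The TS differences of the other 5 ran from -0.23 (*ceh-13*) to 0.19 (*php-3*). On the NTS all 6 differences were positive, from 0.16 (*lin-39*) to 0.54 (*ceh-13*, SE 0.21, adjusted p 0.138), and none passed. Of all genes tested 1.82% were higher and 0.344% lower, and with a median of 0.21 most of their differences were positive too. These levels are relative to each library's kept reads, and with scaling by the median ratio the NTS differences of *lin-39* and *egl-5* turned to -0.05.

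On a per-length scale, TS levels in WT ordered the members as *ceh-13* (7.07 and 6.20 RPKM), *mab-5* (6.32 and 5.99), *nob-1* (5.57 and 5.75), *lin-39* (4.62 and 4.89), *php-3* (3.18 and 3.13) and *egl-5* (2.38 and 3.78). *ceh-13* and *mab-5* overlapped, as did *php-3* and *egl-5*. The gap between *mab-5* and *nob-1* was smaller than the spread of *mab-5*, while *nob-1*, *lin-39* and *php-3* were separated by more than their ranges. In *csb-1* the TS levels were 5.76 and 5.56 RPKM for *ceh-13*, 5.45 and 5.15 for *mab-5*, 4.23 and 4.21 for *nob-1*, 4.17 and 4.18 for *lin-39*, 3.89 and 3.38 for *php-3*, and 2.83 and 3.17 for *egl-5*. The first *xpc-1* library gave 8.20 RPKM for *ceh-13*, 7.43 for *nob-1*, 7.04 for *lin-39*, 4.98 for *mab-5*, 3.19 for *egl-5* and 2.39 for *php-3*. *egl-5* and *php-3* thus had the lowest TS levels in all of these libraries. The median of 18810 protein-coding genes was 3.96 RPKM in the first *xpc-1* library, 4.50 and 4.77 in *csb-1*, against 4.58 and 4.66 in WT. It lay above *egl-5* and *php-3* and below the other 4 members in *xpc-1* and WT, and in *csb-1* it lay above *nob-1* and *lin-39* as well.

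**Figure D3:**
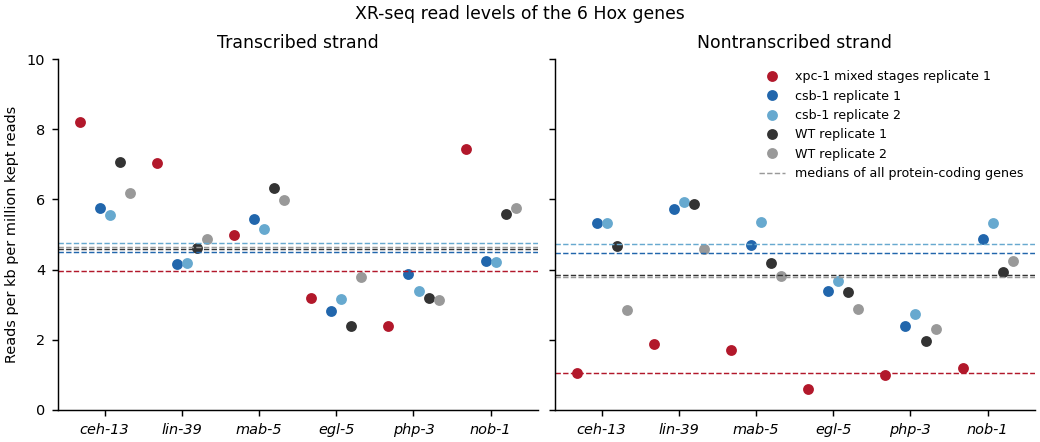
Reads per kb per 1000000 kept reads (y axis) on the TS (left) and the NTS (right) of each Hox gene in the first mixed-stage *xpc-1*, the *csb-1* and the WT libraries; dashed lines are the medians of 18810 protein-coding genes in the library of the same colour. NTS levels in *xpc-1* lie between 0.61 and 1.87 RPKM, below every *csb-1* and WT point.

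The next comparison set *xpc-1*, in which repair is left to TCR, against WT. Strand ratios were higher in mixed-stage *xpc-1* for 5 of the 6 members, with *php-3* the exception, beside 55.7% of 19128 genes tested that were higher and 5.26% that were lower. The median difference over the members was 2.13, against 1.52 over all genes tested. *lin-39* had 268 TS and 71 NTS reads and 10 TS and 4 NTS reads in *xpc-1*, a TS share of 79.1% and 71.4%, against 44.0% and 51.6% in WT (difference 2.10, SE 0.22, adjusted p 1.66e-06). *nob-1* had 231 TS and 37 NTS and 16 TS and 2 NTS reads in *xpc-1*, a share of 86.2% and 88.9%, against 58.5% and 57.5% in WT (2.15, SE 0.24, adjusted p 2.5e-06). Both shares were above every WT value in each *xpc-1* library, as were those of *ceh-13* and *mab-5*. The second library gave only 14 reads for *lin-39* and 18 for *nob-1*. The share of all genes tested that separate in this way was not taken.

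*ceh-13* had 93 TS and 12 NTS and 5 TS and 0 NTS reads in *xpc-1*, and its ratio was 2.22 higher than in WT (SE 0.44, adjusted p 0.000479). *mab-5* had 157 TS and 54 NTS and 8 TS and 0 NTS reads, a share of 74.4% in the first *xpc-1* library against 60.2% and 61.1% in WT, and its difference was smaller than that of the other called members, at 0.95 (SE 0.24, adjusted p 0.00284). *egl-5*, with 42 TS and 8 NTS reads in the first *xpc-1* library and 0 in the second, a count that allows up to 3, had a difference of 2.45 (SE 0.60, adjusted p 0.00263). *php-3* had 38 TS and 16 NTS and 1 TS and 1 NTS reads, a share of 70.4% in the first library, and a difference of 0.54 (95% interval -0.37 to 1.45, adjusted p 0.289). Without the first *xpc-1* library no member remained called (adjusted p from 0.826 for *nob-1* to 1.00 for *ceh-13* and *egl-5*), and with unweighted libraries *ceh-13* and *nob-1* but not *lin-39* (adjusted p 0.0557), *mab-5* (0.135) or *egl-5* (0.395) passed. The summed neuronal and muscle marker levels, given above, were also higher in both *xpc-1* libraries than in WT. The intestine sum was higher in the second alone, where it rests on 7 TS reads. The muscle marker *myo-3* by itself was not higher, and lay between the WT libraries in both *xpc-1* libraries. The part of these markers in the result was not tested.

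Along the genes, TS reads in the first *xpc-1* library leaned to the 5′ end. Summed over the 6 members, reads per TT in the first 1 kb were 1.72 and 1.87 times those in the last 1 kb in *xpc-1* (189 against 114 and 9 against 5 reads), 0.98 and 0.96 times in *csb-1*, and 1.09 and 0.97 times in WT. The lean varied between members: in the first *xpc-1* library it was 3.24-fold in *php-3* (17 against 5 reads), 2.45-fold in *lin-39* (41 against 14), 1.90-fold in *nob-1* (51 against 33), 1.82-fold in *ceh-13* (37 against 31), 1.28-fold in *mab-5* (31 against 18) and 1.17-fold in *egl-5* (12 against 13). In *nob-1* and *php-3* the 5′ end was also higher in every L1 library after UV: the ratio for *nob-1* was 1.63 and 1.65 in *csb-1*, against 1.82 and 2.22 in WT. For *php-3* it was 2.38 and 1.34 in *csb-1*, against 1.04 and 1.38 in WT. Exons and introns were set side by side without a test, and the summed TS share was 84.9% in exons and 79.4% in introns in the first *xpc-1* library, 50.8% and 46.3% in exons and 47.9% and 46.1% in introns in *csb-1*, against 55.5% and 58.8% in exons and 53.4% and 57.1% in introns in WT.

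**Figure D4:**
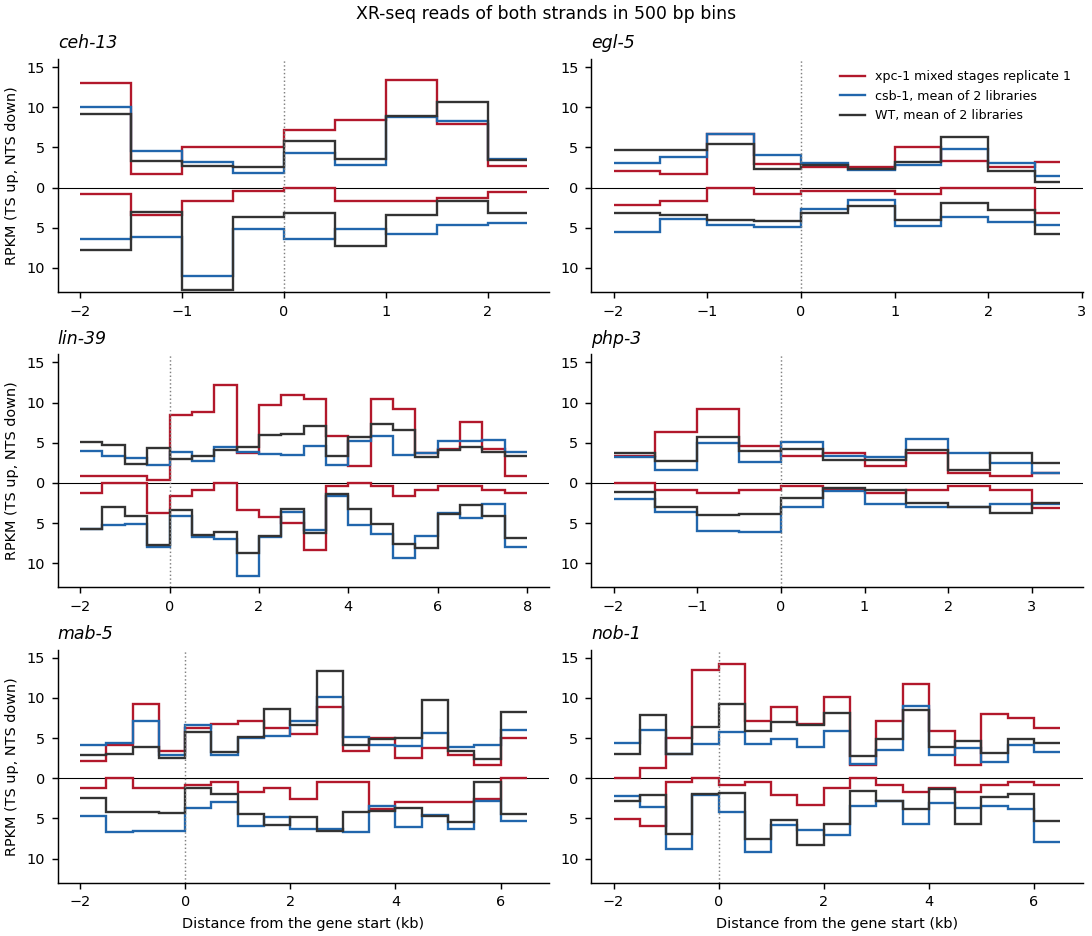
Reads per kb per 1000000 kept reads in 500 bp bins against distance from the gene start (x axis, kb), TS upward and NTS downward, for the first mixed-stage *xpc-1* library and for the means of the 2 *csb-1* and the 2 WT libraries. In the *xpc-1* library the TS bins of *lin-39* are higher after the start than before it (20 reads in the first bin, 1 in the bin before it), whereas *nob-1* has 34 reads in the first bin and 32 in the bin before it.

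*lin-39* and *nob-1* each have a second annotated start inside the gene. In *lin-39* the 1827 bp before the inner start had 74 TS and 11 NTS reads in the first *xpc-1* library (8.50 RPKM on the TS), against 194 TS and 60 NTS reads in the 6165 bp after it (6.61 RPKM). In *nob-1* the 4881 bp before the inner start had 177 TS and 32 NTS reads (7.61 RPKM) and the 1643 bp after it 54 TS and 5 NTS reads (6.90 RPKM). TS reads in *xpc-1* were thus found along the whole of both long transcripts. Local exceptions in *lin-39* were the bins that begin at 1500 and 3000 bp and the last one, where the first *xpc-1* library had 9 TS and 8 NTS, 25 TS and 20 NTS, and 2 TS and 3 NTS reads. In *nob-1* the bins that begin at 2500 and 4500 bp were low, with 4 TS and 0 NTS and 4 TS and 4 NTS reads in that library. In *mab-5* the bins that begin 4000, 4500 and 5000 bp from the start held 6, 9 and 7 TS reads and 7 NTS reads each in that library, and the next bin 4 TS and 6 NTS reads, so that the strands were nearly equal there.

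In the 2 kb upstream, 75.2% of 327 and 92.3% of 13 reads were on the TS of the downstream gene in mixed-stage *xpc-1*, with 43.6% and 42.4% in *csb-1*, against 47.3% and 51.5% in WT, where TTs give 45.1%. 5 of the 6 members leaned to the TS in the first *xpc-1* library: *php-3* with 56 TS and 7 NTS reads (88.9%), *mab-5* with 45 and 9 (83.3%), *ceh-13* with 59 and 15 (79.7%), *egl-5* with 32 and 11 (74.4%) and *nob-1* with 47 and 27 (63.5%). *lin-39* was the exception with 7 TS and 12 NTS reads (36.8%), although its gene had 268 TS reads. The share of all upstream windows that lean to the TS was not taken. The paper reports many more TS than NTS reads upstream of gene starts in *xpc-1* generally, so that this lean cannot be called a trait of Hox genes. For *php-3*, 55 of the 56 TS reads lay inside the *nob-1* gene, which is transcribed in the same direction, so that they cannot be assigned to 1 of the 2 genes. These 55 reads are counted both in the upstream sum and in the sum over the genes.

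The upstream reads were local. In *nob-1* the 500 bp before the start held 32 TS and 0 NTS reads in the first *xpc-1* library, the bin that begins 2000 bp upstream held 0 TS and 12 NTS reads and the next 3 TS and 14 NTS reads, so that the strands reversed within the window. In the 500 bp before the *lin-39* start there were 1 TS and 9 NTS reads. *ceh-13* had 31 of its 59 upstream TS reads in the most distant 500 bp, with 2 NTS reads, and *mab-5* had 22 of 45 between 500 and 1000 bp before its start, with 3 NTS reads. No upstream window of a member passed the test between *csb-1* and WT (adjusted p from 0.133 for *php-3*, difference -0.94 with SE 0.32, to 0.916 for *ceh-13*), where 2.03% of 46209 windows were higher and 1.76% lower; the *php-3* window passed with counting weights (adjusted p 0.0479), with reads weighted by copies (0.0355) and without WT replicate 1 (0.00331). Without WT replicate 1 the windows of *lin-39* (-0.88, adjusted p 0.0159) and *nob-1* (-0.90, adjusted p 0.0194) passed as well.

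Neighbouring genes gave a scale for these values. *egl-45*, beyond *egl-5*, had 832 TS and 23 NTS reads in the first *xpc-1* library (97.3%, 41.1 RPKM on the TS), 61.6% and 59.6% on the TS in *csb-1*, against 75.1% and 84.2% in WT. *lig-4*, next to *lin-39*, had 97.3% in the first *xpc-1* library (28.8 RPKM), 58.5% and 54.4% in *csb-1*, against 67.3% and 65.5% in WT. *cyk-7*, between *mab-5* and *egl-5*, had 303 TS and 7 NTS reads in the first *xpc-1* library (97.7%), but 37.0% and 45.1% in *csb-1*, against 50.0% and 38.5% in WT. These shares were reached by no Hox gene in the first *xpc-1* library, nor was the TS level of any of the 3 neighbours. The upper quartiles over protein-coding genes there were 92.0% for the share and 15.5 RPKM for the TS level, below all 3 neighbours. The other neighbours in that library were *bath-15* at 77.9% (25.1 RPKM on the TS), *lgc-12* at 68.4% (2.29), *zyg-8* at 96.5% (10.5) and *cest-12* at 86.5% (3.48). The TS levels of *bath-15* and *zyg-8* also lay above those of every Hox gene there, unlike those of *lgc-12* and *cest-12*.

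Irradiated WT had 2267 and 858 reads in the 6 genes together, against 3 in each library without UV. Of those 6 reads without UV, 3 were on the TS of *lin-39* and 2 on that of *nob-1*, and 1 on the NTS of *mab-5*; *ceh-13*, *egl-5* and *php-3* had 0 in both libraries, which allows up to 3 each. Scaled to 1000000 kept reads the sums were 277 and 264 in irradiated WT and 292 and 232 without UV, and 3 reads a library are too few to compare these shares.

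Genes that act with or on the Hox genes were counted in 4 lists of 27 genes, all tested. In *csb-1* against WT, 14 of the 27 had a lower ratio and 0 a higher one (median -0.44), beside 13.3% lower, 0.344% higher and a median of -0.21 over all genes tested. Of the 10 chromatin regulators 8 were lower: *sop-2* (-1.29, SE 0.18, adjusted p 0.000531), *lin-59* (-1.21), *lin-49*, *sor-1*, *sor-3*, *mes-6*, *spat-3* and *mes-3*; *sop-2*, *sor-1* and *sor-3* belong to worm-specific Polycomb-like repression of Hox genes, and *lin-49* and *lin-59* are trithorax-like genes that keep Hox genes on. Of the 4 TALE cofactors 2 were lower, *ceh-20* (-1.31), a Pbx homolog, and *unc-62* (-0.44), a Meis homolog. Of 8 Wnt-pathway and other upstream genes 4 were lower, *mig-5* (-1.16), *pry-1* (-0.93), *mig-1* (-0.58) and *lin-17* (-0.44), and *egl-20*, the Wnt ligand, was not (0.01). Of 5 target genes 0 were lower.

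In mixed-stage *xpc-1* against WT, 24 of the 27 had a higher ratio and 0 a lower one (median 2.44), beside 55.7% higher, 5.26% lower and a median of 1.52 over all genes tested. All 10 chromatin regulators, 8 of 8 upstream genes, 3 of 4 cofactors and 3 of 5 targets were among the 24. TS shares in the first *xpc-1* library were above 95% for 10 of the 27: the chromatin regulators *mes-6*, *lin-59*, *sor-1*, *spat-3*, *lin-49*, *mes-3*, *sor-3* and *sop-2*, and the Wnt-pathway genes *mig-5* (97.4%, the highest) and *pop-1*. The upper quartile of 16642 protein-coding genes in that library was 92.0%, so that most genes lay below 95%, as every Hox gene did. The share of these genes above 95% was not taken, so that 10 of 27 cannot be set against it. *psa-3*, a target of *nob-1*, had 57.6% in the first *xpc-1* library and *ceh-40*, a second Pbx homolog, 50.0%.

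By Euclidean distance over 10 values (log2 RPKM with 0.1 added, both strands, in the first *xpc-1*, the *csb-1* and the WT libraries), the members fell into 2 sets. *ceh-13*, *lin-39*, *mab-5* and *nob-1* lay 0.92 to 1.44 from each other, *egl-5* and *php-3* lay 1.43 apart, and pairs across the sets lay 2.31 to 3.12 apart. Neither chromosomal neighbours nor paralogs were each other's nearest members in every case: *nob-1* was nearest to *mab-5* (0.92) and far from *php-3* (2.76). Among 12675 protein-coding genes, the 3 most like *nob-1* were *glb-25* (0.33), *blmp-1* (0.43) and *pamn-1* (0.44), and for *lin-39* they were *ttm-1* (0.42), C17H11.1 (0.62) and *blmp-1* (0.64). *ceh-13* was closest to *sma-4* (0.43), *hpd-1* and *dyf-13*, *mab-5* to F42G2.5 (0.42), Y102A11A.3 and F52D2.7, *egl-5* to *spe-41* (0.56), T07D10.1 and *nhr-128*, and *php-3* to Y48G1C.5 (0.63), *abt-5* and *srb-16*.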

How the data were processed

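Per the paper's methods, the authors trimmed adaptors with cutadapt, aligned reads to ce11 with Bowtie 2 and deduplicated them. The deposited BED files hold 1 line per distinct read of 19 to 24 nt, and their score column is the mapping quality, 0 to 42, not filtered. Reads with a score over 20 were counted by midpoint and strand with Python 3.11.15, numpy 2.4.6, pandas 2.3.3 and scipy 1.17.1.

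Strand ratios and log2 levels (pseudocount 0.5) were fitted with R 4.3.3 and limma 3.58.1. Its prior variance followed the read level or, for *xpc-1*, counting weights were used; genes averaging 20 reads or more entered, and p-values were adjusted by Benjamini-Hochberg. On simulated data, 200 of 23845 genes (*csb-1* ratio) or of 19139 (*xpc-1* ratio) were changed by 1 on the log2 scale. Of these changes, 27.5% in the *csb-1* ratio and 23.5% in the *xpc-1* ratio were recovered. Unchanged genes called there numbered 0 and 6. Among changed genes averaging 100 reads or more, as all members do in the *csb-1* comparison, 51 of 118 and, for *xpc-1*, 42 of 89 were recovered. In the data far larger shares were called, 13.3% lower in *csb-1* and 55.7% higher in *xpc-1*. The adjustment depends on how many genes change, so that the recovered shares cannot be carried over to the tests above. The members, lists and tests were chosen with earlier results of these data known. Named genes are the 6 members, their nearest protein-coding neighbours, overlapping genes, list genes and the 3 most similar genes of each member. Precision is limited by the depths given above.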

Additional observations from a re-analysis of the deposited data

How the results depend on the processing

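Of 447 values of the Hox genes under the alternatives, 367 kept their direction and side of the threshold, 33 newly passed it, 21 no longer did and 26 changed sign, and the causes were not tested; none of those 26 was significant in the comparison as reported. A fit without 1 library leaves its group with 1 sample, which is assumed to vary like the others. Genes with a lower *csb-1* strand ratio (3178) numbered 1137 to 6307 when each library was left out in turn and 1994 without genes that overlap one on the other strand, and those with a higher ratio (82) 10 to 1306, 41 with libraries thinned, 134 with counting weights, 167 with the replicate block, 25 without overlapping genes and 38 with reads in no other gene. In the 2 kb upstream the higher (940) and lower (812) windows numbered 119 to 4897 and 62 to 5249 on leaving out a library, 1731 and 1693 with counting weights, 1537 and 1458 with the replicate block, 261 and 263 in 1 kb, and 11 and 11 with reads in no gene. For mixed-stage *xpc-1* the higher (10646) and lower (1007) genes numbered 99 to 10602 and 2 to 1058 on leaving out a library, and 4548 and 171 without weights. Higher TS levels (541) numbered 20 to 1950, 253 with copies and 980 with the block. Higher (435) and lower (82) NTS levels numbered 1 to 3348 and 17 to 477, 11 and 184 with median-ratio scaling, 0 and 20 with copies, 1164 and 145 with the block, and 286 higher with each position once. Where limma called 0 higher NTS levels with copies, 4278 were higher at an unadjusted p under 0.05. Against TTs, lower WT genes (1901) numbered 1214 to 3182, and higher (831) and lower (755) *csb-1* genes 10 to 3377 and 5 to 3498, 2133 and 2082 with no TT offset, 3041 and 3217 with counting weights, and 1512 and 1415 with the block.

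On leaving out a library the *csb-1* minus WT ratio of *egl-5* ran between -0.61 and 0.26, that of *php-3* between -0.25 and 0.13, and in the upstream windows those of *ceh-13* between -0.28 and 0.46 and of *mab-5* between -0.53 and 0.28. The *ceh-13* window was -0.011 with counting weights, the *mab-5* window 0.058 with copies, and the *egl-5* window 0.23 in 1 kb. The *xpc-1* ratio of *php-3* ran between -0.61 and 0.71. *egl-5* TS levels ran between -0.34 and 0.33, and were 0.014 with median-ratio scaling and 0.027 with each position once; NTS levels of *lin-39* ran between -0.014 and 0.34, and median-ratio scaling gave -0.051 for *lin-39* and -0.046 for *egl-5*. Against TTs in WT, *lin-39* ran between -0.17 and 0.27 and *egl-5* between -0.29 and 0.58, with -0.13 and -0.054 without the TT offset and -0.053 and -0.013 with counting weights; in *csb-1*, *nob-1* ran between -0.092 and 0.045 and *egl-5* was 0.10 with all pyrimidine dinucleotides. Deviations of same-numbered replicates from their group means had correlations of -0.01 to 0.07. Counting error enters each deviation, so that these values cannot decide whether the numbers pair libraries. The labels do not say so either. The replicate block left the *nob-1* and *mab-5* ratios called (adjusted p 0.000391 and 0.00991) and added *ceh-13* (0.0233). The depth of the second *xpc-1* library and of WT no UV limits what they can show.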
